A study of Mus musculus with 16 samples.

Results

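The interleukin-6 family acts through a shared receptor chain, gp130, and the genes described here are 9 members of that system: the ligand genes Il6 and Lif, the receptor genes Il6ra, Il6st, Lifr and Osmr, and the transcription factor genes Stat3, Stat5a and Stat5b. They were chosen by gene symbol, and all 9 were found among the 41325 genes of the tables. The cells were immortalized preadipocytes from wild-type C57Bl6/J mice, a precursor line that forms fat cells in culture. Cells were pre-treated with interleukin-13 (IL-13), a type 2 cytokine, for 16 h or given no agent, and RNA was taken at day 6 or day 0 of differentiation. This gave 4 groups of 4 libraries: IL-13 at day 6, untreated at day 6, IL-13 at day 0 and untreated at day 0. All groups share the strain and the immortalized origin, and the labels give neither the number of clones in the line nor whether replicates were grown as separate cultures. The p-values therefore measure only how far replicate libraries differ, and that spread may be technical.

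In this family a cytokine acts through a partner chain together with gp130, the product of Il6st. Il6ra encodes the interleukin-6 binding chain, Lifr a chain used by leukemia inhibitory factor, and Osmr a chain used by oncostatin M. Janus kinases bound to gp130 then phosphorylate Stat3, while Stat5a and Stat5b are best known downstream of growth hormone, prolactin and related receptors. In fat cell precursors, Stat5 proteins are known to promote the adipogenic programme.

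Il6, Il6ra and Il6st are shown first by sequence, because the first had almost no reads while the other pair moved upward together after IL-13 at day 0. Each run is the 250 bases before the RefSeq start (GRCm38.p6), 5′ to 3′ on the gene's own strand, with every CG pair in capitals. The Il6 run lies on chromosome 5 at 30012864 to 30013113 on the plus strand, the Il6ra run on chromosome 3 at 89913197 to 89913446 on the minus strand, and the Il6st run on chromosome 13 at 112463820 to 112464069 on the plus strand.

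Il6: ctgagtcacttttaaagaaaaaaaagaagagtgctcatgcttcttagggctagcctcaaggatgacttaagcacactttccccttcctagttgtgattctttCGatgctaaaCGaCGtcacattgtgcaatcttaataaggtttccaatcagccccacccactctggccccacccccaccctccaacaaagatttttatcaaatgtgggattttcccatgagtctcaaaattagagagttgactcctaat
Il6ra: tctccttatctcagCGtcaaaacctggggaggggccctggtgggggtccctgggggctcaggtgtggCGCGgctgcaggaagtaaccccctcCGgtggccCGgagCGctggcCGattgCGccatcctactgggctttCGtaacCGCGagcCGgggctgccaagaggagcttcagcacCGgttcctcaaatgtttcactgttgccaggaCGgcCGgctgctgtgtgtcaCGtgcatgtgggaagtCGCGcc
Il6st: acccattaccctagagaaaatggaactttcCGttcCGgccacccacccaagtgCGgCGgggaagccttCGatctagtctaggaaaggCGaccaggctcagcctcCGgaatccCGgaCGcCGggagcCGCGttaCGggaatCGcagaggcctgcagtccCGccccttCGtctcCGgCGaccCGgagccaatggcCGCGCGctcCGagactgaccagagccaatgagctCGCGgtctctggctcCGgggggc

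The Il6 run held 3 CG pairs, the Il6ra run 18 and the Il6st run 26, against a median of 6 and an upper quartile of 16 over 32851 RefSeq promoters cut the same way. The letters TTCNNNGAA, which describe a Stat binding site and read the same on both strands, were searched in these runs and in the windows of the other members. They were present in none of the 12 windows of the 9 genes, and in 7.02% of all promoters. A form with 1 more free base between its ends was absent from the same windows too, and 12.4% of all promoters held either form. No match says only that these letters are not in this window.

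Library totals lay between 15253031 and 18112087 counts. Adipocyte marker genes summed to 25000 to 26700 CPM (counts scaled to library size, with TMM factors over all 16 libraries) in IL-13 libraries and 23900 to 25800 in untreated libraries at day 6, against 452 to 475 in IL-13 libraries and 482 to 523 in untreated libraries at day 0. At day 0, Lep was at 0 in every library, and Cfd was also at 0 in the IL-13 libraries. Preadipocyte and fibroblast markers, 8 genes, summed to 13100 to 14700 CPM in IL-13 and 8510 to 11700 CPM in untreated libraries at day 0. These day 0 ranges did not overlap. At day 6 the sums were 2080 to 2690 CPM in IL-13 and 2140 to 2680 CPM in untreated libraries. A sum is weighted to its most abundant genes and need not hold for each marker. Pdgfra and Pdgfrb, of the preadipocyte and fibroblast list, did not pass for IL-13 at day 0 (edgeR adjusted p = 0.729 and 0.627). Pparg, of the adipocyte list, was higher with IL-13 at day 0 (edgeR adjusted p = 9.66e-07), although that sum was lower. The 8 macrophage and leukocyte markers summed to at most 11.9 CPM and the 4 endothelial markers to at most 3.32 CPM. Adgre1 was at 0 in every group. A nuclear RNA index, the mean log2 CPM of 19 measured transcripts of a 20-gene list of nuclear-retained and splicing-factor RNAs, was 5.99 ± 0.23 in IL-13 and 6.65 ± 0.2 in untreated libraries at day 6 and 5.69 ± 0.0595 in IL-13 and 6.22 ± 0.246 in untreated libraries at day 0 (SD, n = 4; two-sided exact permutation p = 0.0286 each, the smallest that 70 arrangements give). The list was written with earlier results of these data known, so these p values are a description and not an independent test. The index was lower with IL-13 on each day without overlap. A fit within a day can therefore not fully separate IL-13 from the index. Which of them a lost call or a turned sign in that fit belongs to was not tested. For the genes named below, a call gained or lost when the index enters the fit as a covariate is given with both values. In bulk RNA, fewer cells of a type and less RNA per cell cannot be told apart.

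The ligand genes were close to the limit of detection throughout. Il6 had 4 counts in all over the day 6 IL-13 libraries, 5 over the day 6 untreated, 2 over the day 0 IL-13 and 5 over the day 0 untreated libraries. The exact Poisson 95% interval of each sum, which covers counting error only, was 1.09 to 10.2, 1.62 to 11.7, 0.242 to 7.22 and 1.62 to 11.7 in the same order. Lif had 11, 20, 19 and 23 counts in that order of groups, with intervals of 5.49 to 19.7, 12.2 to 30.9, 11.4 to 29.7 and 14.6 to 34.5. Neither gene passed the expression filter, so 7 of the 9 members were tested. Without the filter, edgeR's adjusted p for IL-13 at day 6 was 0.906 for Il6 and 0.528 for Lif, and at day 0 it was 0.512 and 0.867. A difference in either ligand was not detectable at this depth. Of the other gp130 cytokines, Osm, a ligand of the Osmr chain, had no count in any library.

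Among the receptors, Il6st stood first of the 9 genes in every group when ordered by the authors' TPM, which scales by gene length. Its mean TPM was 38.8 ± 4.82 in IL-13 and 38.1 ± 3.69 in untreated libraries at day 6, and 152 ± 7.41 in IL-13 and 110.3 ± 1.22 in untreated libraries at day 0 (SD, n = 4). At day 6 the untreated libraries overlapped between Il6st and Stat5a, so that place in the order is not separated there. Lifr came next after Stat3 in untreated cells at day 0, overlapping its neighbours Stat3 and Stat5b, and came after Il6st and the 3 Stat genes in both day 6 groups. Il6ra was the lowest of the 7 tested genes in untreated cells at day 0, and in IL-13 cells at day 0 it lay between Lifr and Stat5a and overlapped both. Osmr was the lowest of the 7 tested genes in IL-13 cells at day 0 and in both day 6 groups.

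**Figure D1:**
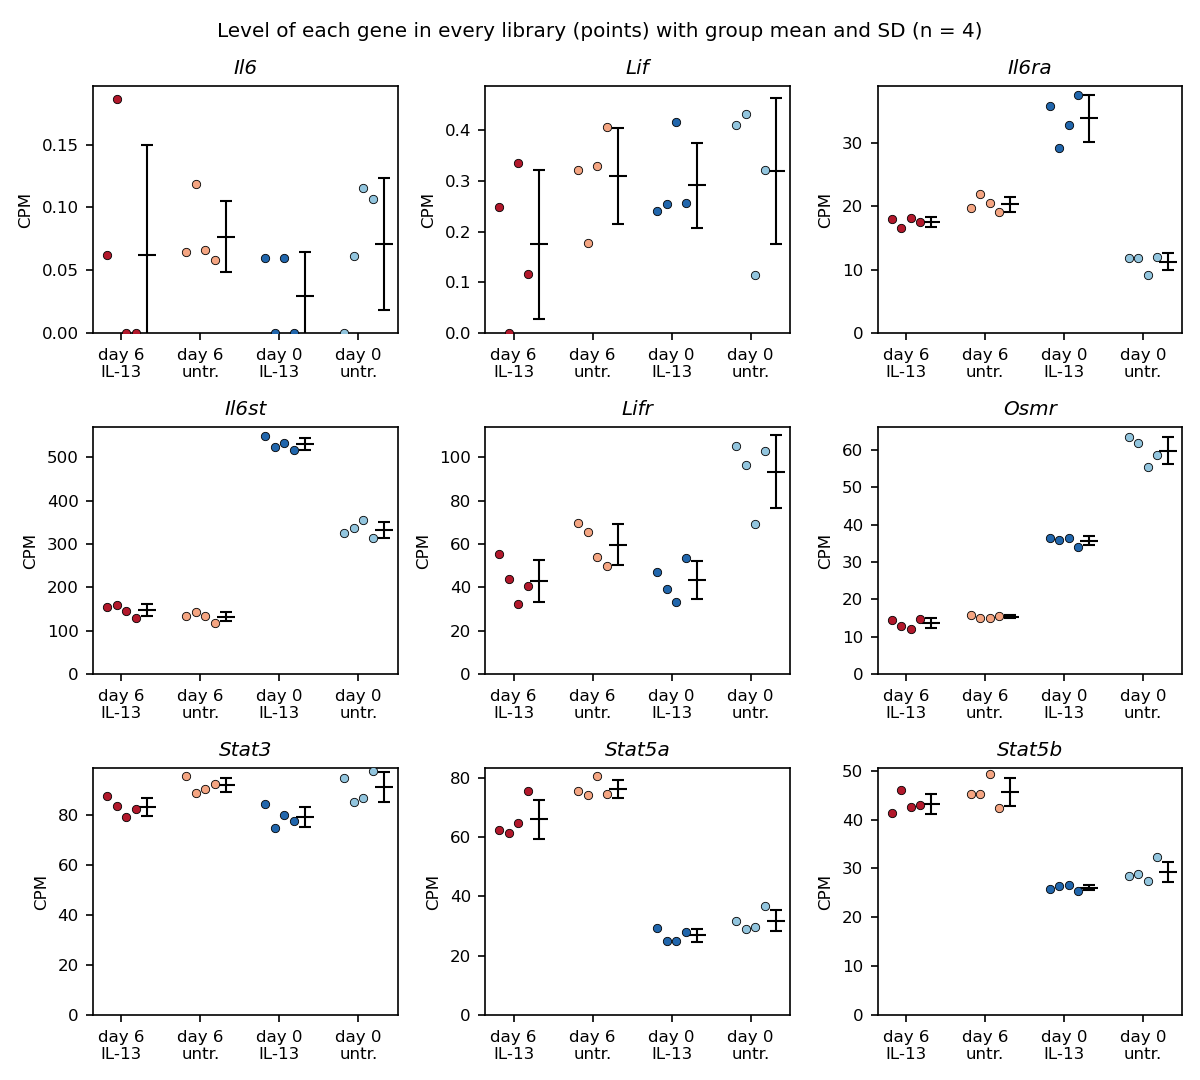
CPM of each of the 9 genes in every library, by group; each point is 1 library, and the bar and whiskers are the group mean and SD (n = 4), cut at 0 where the SD reaches below it. Il6ra and Il6st are highest in the day 0 IL-13 libraries, Osmr is highest in the day 0 untreated libraries, Lifr has its highest group mean there but overlaps the day 6 untreated libraries, and Stat5a and Stat5b are higher at day 6 in both groups.

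IL-13 at day 0 was accompanied by higher Il6ra and Il6st and by lower Lifr, Osmr, Stat3, Stat5a and Stat5b. All 7 tested members passed the test (edgeR's quasi-likelihood test, adjusted p under 0.05 over 12274 genes), 2 of them higher and 5 lower. Over all tested genes the share called was 47.9%, made up of 23.7% higher and 24.2% lower. With scaling to total counts the median change over all genes moved to -0.131 (log2) and the calls split into 1682 higher and 4523 lower, against 2912 and 2969 with TMM, and the members were still 2 higher and 5 lower. The median absolute log2 fold change was 0.66 for the 7 members and 0.216 for all tested genes.

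Il6ra, the chain that binds interleukin-6, had 35.8, 29.2, 32.8 and 37.5 CPM in the day 0 IL-13 libraries, against 11.8, 11.9, 9.21 and 12 CPM in the day 0 untreated libraries. Every IL-13 library lay above every untreated library. How many of all tested genes lie without overlap was not counted, so overlap is given here and below as a description only. The log2 fold change was 1.57 ± 0.10 (SE; edgeR adjusted p = 1.26e-08). Part of the gene, 2.29% of its 50-base stretches, is shared with the antisense gene Gm42809, and whether reads were counted by strand is not stated in the labels or headers.

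Il6st, which encodes gp130 itself, had 548, 523, 532 and 518 CPM in the day 0 IL-13 libraries, against 324, 336, 355 and 313 CPM in the day 0 untreated libraries. The groups did not overlap, and the log2 fold change was 0.66 ± 0.05 (SE; edgeR adjusted p = 1.39e-07). None of the 50-base stretches of its transcripts occurs in another gene. The chain that binds interleukin-6 and the shared chain were thus both higher with IL-13 at day 0.

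The partner chains for leukemia inhibitory factor and oncostatin M went the other way. Lifr had 46.9, 39.4, 33.4 and 53.7 CPM in the day 0 IL-13 libraries, against 105, 96.4, 69.0 and 103 CPM in the day 0 untreated libraries. The groups did not overlap, and Lifr fell by 1.12 ± 0.19 on the log2 scale (SE; edgeR adjusted p = 0.00228). The day 0 untreated library with the lowest Lifr, at 69.0 CPM, also had the lowest nuclear RNA index of its group, 5.888. With the index as a covariate, the log2 fold change was -0.49 and the adjusted p 0.457, so the call is lost in that fit. Without the 2 untreated libraries with the highest index, an alternative chosen after seeing the data, 4 members were called: Il6ra, Il6st, Lifr and Osmr.

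Osmr had 36.4, 36.0, 36.5 and 34.0 CPM in the day 0 IL-13 libraries, against 63.6, 61.8, 55.3 and 58.6 CPM in the day 0 untreated libraries. The groups did not overlap, and Osmr fell by 0.76 ± 0.06 on the log2 scale (SE; edgeR adjusted p = 9.72e-08). Il6ra, Il6st and Osmr were called in the fit with the index as a covariate, while Lifr, Stat3, Stat5a and Stat5b were not. Over all genes, 852 were called in that fit, against 5881 without the covariate.

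The transcription factor genes were lower by small amounts. Stat3, the main effector of gp130, had 84.5, 74.8, 79.8 and 77.4 CPM in the day 0 IL-13 libraries, against 94.8, 85.3, 86.8 and 97.6 CPM in the day 0 untreated libraries. It averaged 79.1 ± 4.10 CPM in IL-13 and 91.1 ± 6.00 CPM in untreated libraries at day 0 (SD, n = 4). The groups did not overlap, and Stat3 fell by 0.22 ± 0.06 on the log2 scale (SE; edgeR adjusted p = 0.00774). Stat5a averaged 26.8 ± 2.26 CPM in IL-13 and 31.7 ± 3.52 CPM in untreated libraries, with overlap, and fell by 0.26 ± 0.09 (SE; edgeR adjusted p = 0.0249). Stat5b averaged 26 ± 0.513 CPM in IL-13 and 29.3 ± 2.07 CPM in untreated libraries, and fell by 0.19 ± 0.07 (SE; edgeR adjusted p = 0.0334). The Stat5a call was lost without untreated replicate 4 (adjusted p = 0.103), IL-13 replicate 2 (0.0816) or IL-13 replicate 3 (0.0783). The Stat5b call was lost without untreated replicate 1 or 4 and without each IL-13 replicate, with adjusted p values of 0.0544 to 0.131. With the index as a covariate the log2 fold changes were -0.04 for Stat3, -0.03 for Stat5a and -0.06 for Stat5b (adjusted p = 0.902, 0.958 and 0.877). None of the 3 Stat genes was called in a test against a fold of 1.2. Stat5a and Stat5b share 608 stretches of 50 bases, 8.21% of those of Stat5a and 11% of those of Stat5b, so reads from those stretches cannot be assigned with certainty.

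At day 6 none of the 7 tested members passed the test for IL-13, where 6.55% of 12352 genes were called, 2.21% higher and 4.34% lower. That share rested on single libraries: leaving out 7 of the 8 in turn moved the count of 809 genes by over 1.5 times, to between 60 without untreated replicate 2 and 2328 without IL-13 replicate 1. With scaling to total counts the calls split into 53 higher and 1032 lower, against 273 and 536, and Il6ra (-0.29, adjusted p = 0.0424), Stat3 (-0.22, 0.0483) and Stat5a (-0.28, 0.033) were called lower. In edgeR 4 of the 7 had an unadjusted p under 0.05, as did 3325 of the 12352 genes. DESeq2 called 1 of the 7, Lifr, and 1470 genes in all. The median absolute log2 fold change was 0.167 for the members and 0.138 for all tested genes. Il6ra had 18.0, 16.5, 18.2 and 17.4 CPM in the day 6 IL-13 libraries, against 19.7, 21.9, 20.5 and 19.0 CPM in the day 6 untreated libraries. Il6ra, Osmr and Stat3 did not overlap between the groups, but their adjusted p values were 0.125, 0.239 and 0.158 in edgeR. The share of all tested genes without overlap was not counted at day 6 either. Lifr had 55.5, 44.0, 32.2 and 40.6 CPM in the day 6 IL-13 libraries, against 69.5, 65.5, 53.9 and 49.9 CPM in the day 6 untreated libraries. Its log2 fold change was -0.46 ± 0.15 (SE; edgeR adjusted p = 0.0886), and without IL-13 replicate 1 of day 6 it was -0.62 (adjusted p = 0.0163). With the index as a covariate the sign turned, to 0.23 for Lifr (adjusted p = 0.736) and 0.04 for Osmr (0.971), whose log2 fold change was otherwise -0.17. Il6st had 155, 159, 146 and 129 CPM in the day 6 IL-13 libraries, against 134, 144, 134 and 118 CPM in the day 6 untreated libraries, with overlap. Il6st, Stat5a and Stat5b had log2 fold changes of 0.17, -0.19 and -0.06 and adjusted p values of 0.2, 0.119 and 0.581.

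The IL-13 effect differed between day 6 and day 0 for 3 of the 7 members, where 8.06% of 13157 genes were called, 3.12% with a higher and 4.95% with a lower effect at day 6. The difference of log2 fold changes, day 6 minus day 0, was -1.80 ± 0.13 for Il6ra (SE; edgeR adjusted p = 4.12e-09). It was -0.52 ± 0.10 for Il6st (adjusted p = 0.00113) and 0.57 ± 0.10 for Osmr (adjusted p = 0.000575). For Lifr it was 0.64 ± 0.26 (adjusted p = 0.177), and 0.76 with the index as a covariate (adjusted p = 0.0077); for Stat3, Stat5a and Stat5b the adjusted p values were 0.734, 0.915 and 0.605. Without the pair of untreated libraries of each day with the highest index, the difference for Il6st was -0.36 (adjusted p = 0.0948).

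**Figure D2:**
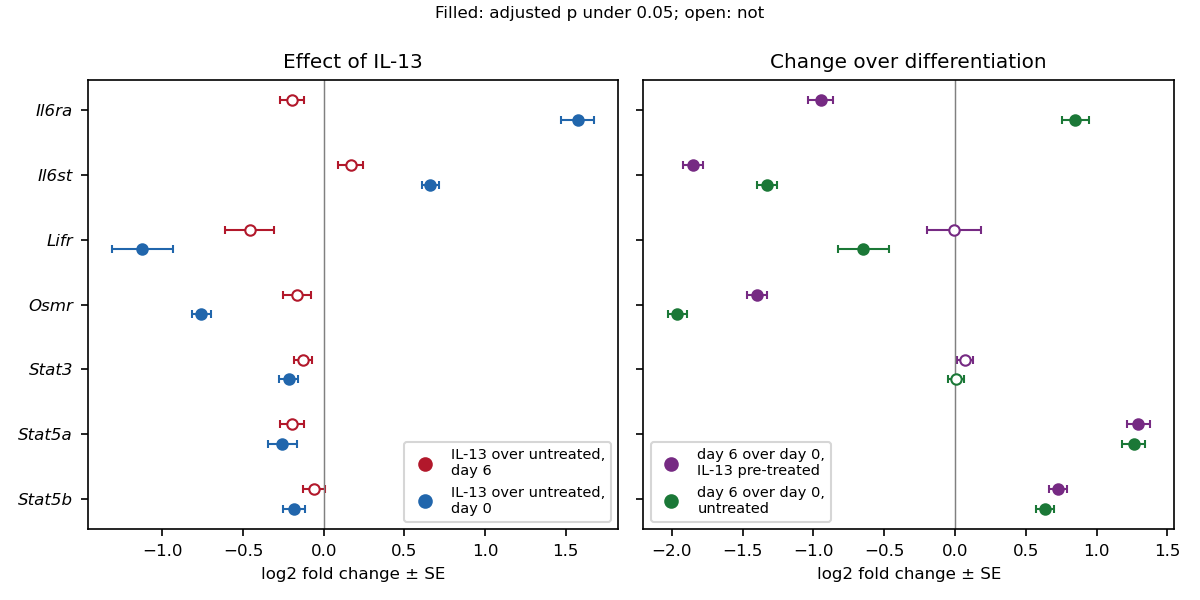
Log2 fold change with SE of the 7 tested genes; left, IL-13 over untreated at day 6 (red) and day 0 (blue); right, day 6 over day 0 in IL-13 pre-treated (purple) and untreated (green) cells, with filled points for adjusted p under 0.05. All day 0 points are filled on the left and no day 6 point is.

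Over differentiation, Il6st and Osmr fell and Stat5a and Stat5b rose in both IL-13 pre-treated and untreated cells, and Il6ra took opposite directions. In IL-13 pre-treated cells 5 of 7 tested members were called, 2 higher and 3 lower, where 80.8% of 13157 genes were called, 40.6% higher and 40.3% lower. In untreated cells 6 of 7 were called, 3 higher and 3 lower, where 80.5% were called, 41.5% higher and 39% lower. With most genes called, these member counts are near the background.

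For Il6ra, the log2 fold change of day 6 over day 0 was -0.95 ± 0.09 in IL-13 pre-treated cells and 0.85 ± 0.09 in untreated cells (SE; edgeR adjusted p = 3.56e-09 and 4.82e-08). Its CPM at day 6 was 17.5 ± 0.758 in IL-13 and 20.3 ± 1.22 in untreated libraries, against 33.8 ± 3.64 in IL-13 and 11.2 ± 1.35 in untreated libraries at day 0 (SD, n = 4). The day 6 values of both treatments lie between those day 0 values.

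Il6st fell by 1.85 on the log2 scale in IL-13 pre-treated cells and by 1.33 in untreated cells (edgeR adjusted p = 9.03e-16 and 2.19e-13). Osmr fell by 1.40 in IL-13 pre-treated cells and by 1.96 in untreated cells (edgeR adjusted p = 1.34e-13 and 2.35e-16). Lifr fell by 0.65 in untreated cells (edgeR adjusted p = 0.00437), where the libraries overlap, while its log2 fold change in IL-13 pre-treated cells was -0.01 (adjusted p = 0.975), and -0.36 with the index as a covariate (adjusted p = 0.0359).

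Stat5a rose by 1.30 ± 0.08 on the log2 scale in IL-13 pre-treated cells and by 1.26 ± 0.08 in untreated cells (SE; edgeR adjusted p = 5.9e-12 and 6.52e-12). It had 62.3, 61.2, 64.7 and 75.3 CPM in the day 6 IL-13 libraries, against 29.4, 25, 24.9 and 28.1 CPM in the day 0 IL-13 libraries. Every day 6 library lay above every day 0 library. Stat5b rose by 0.73 in IL-13 pre-treated cells and by 0.64 in untreated cells (edgeR adjusted p = 1.16e-09 and 8.34e-09). Stat3 had log2 fold changes of 0.07 and 0.01, with adjusted p values of 0.249 and 0.872. The TPM of Stat3 over that of Stat5a was 0.953 ± 0.107 in IL-13 and 0.904 ± 0.0459 in untreated libraries at day 6, against 2.21 ± 0.145 in IL-13 and 2.16 ± 0.114 in untreated libraries at day 0 (SD, n = 4). These ratios were chosen after the values were seen and carry no test.

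The balance between receptor chains is given as ratios of the authors' TPM, chosen after the values were seen and without a test. Lifr over Il6ra was 1.97 ± 0.444 in IL-13 and 2.36 ± 0.342 in untreated libraries at day 6, and 1.02 ± 0.145 in IL-13 and 6.63 ± 0.487 in untreated libraries at day 0 (SD, n = 4). Osmr over Il6ra was 0.552 ± 0.0585 in IL-13 and 0.543 ± 0.0442 in untreated libraries at day 6, and 0.761 ± 0.0989 in IL-13 and 3.83 ± 0.337 in untreated libraries at day 0. The untreated day 0 libraries stood above all others in both ratios.

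**Figure D3:**
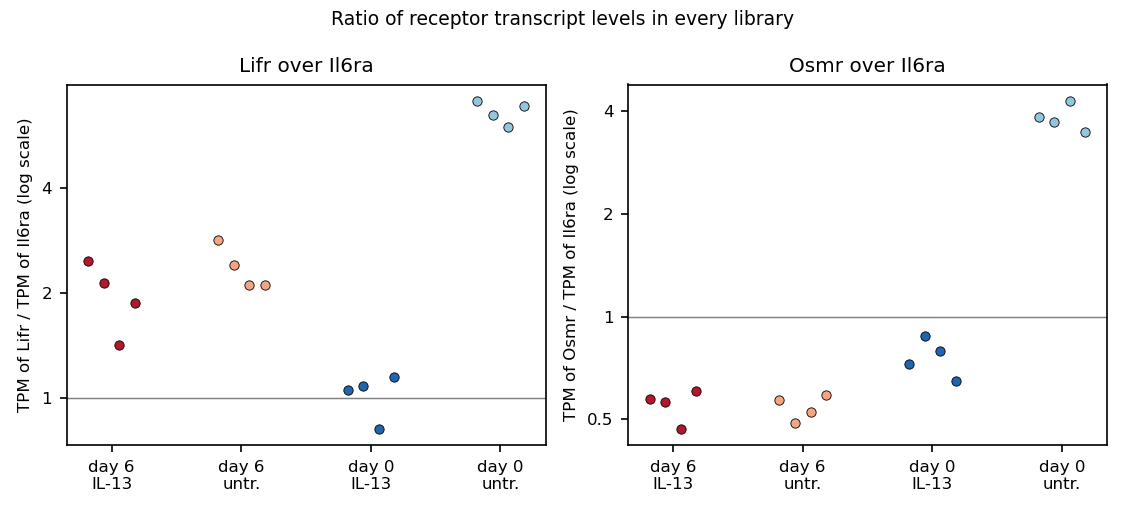
Ratio of TPM of Lifr over Il6ra (left) and Osmr over Il6ra (right) in every library on a log axis, by group; each point is 1 library. The 4 day 0 untreated libraries lie between 6.01 and 7.13 on the left and between 3.48 and 4.29 on the right, above all others.

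**Figure D4:**
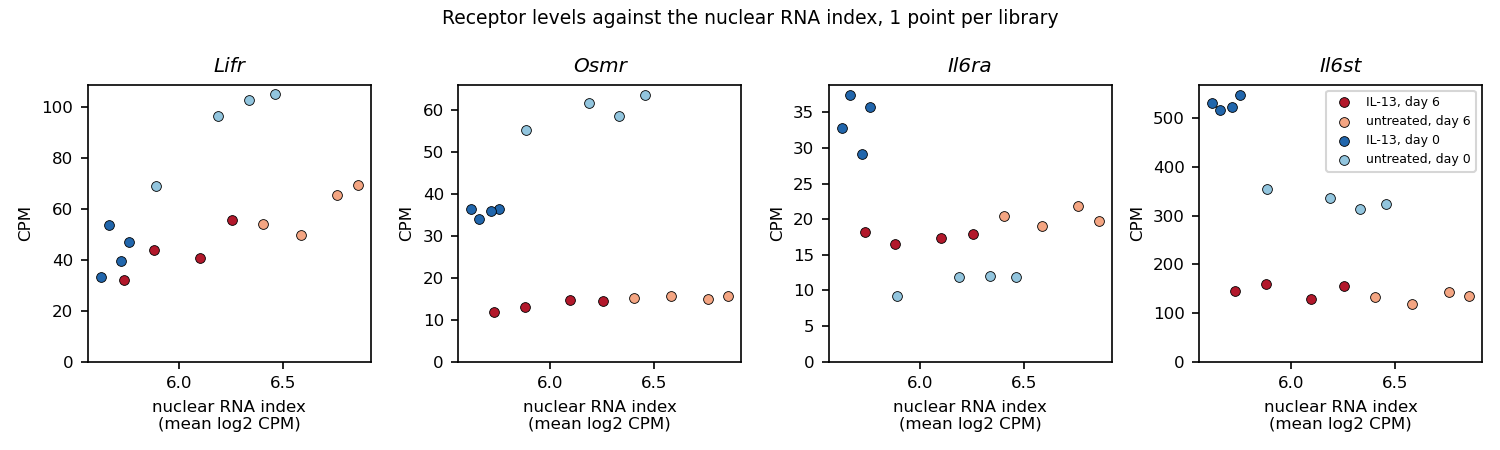
CPM of Lifr, Osmr, Il6ra and Il6st against the nuclear RNA index (mean log2 CPM), 1 point per library, coloured by group. Within each day the IL-13 libraries lie to the left of the untreated ones, with no overlap in the index.

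Of the other genes of the pathway, chosen with earlier results of these data known, Cish and Socs1 had the largest log2 fold changes among those tested at day 0. Both are feedback inhibitors. Of the 9 tested of that list, 3 rose, 2 fell and 4 did not pass, near the 47.9% called over all genes; the median log2 fold change was 0.0566, against -0.0111 over all genes tested. Cish, a Stat5-induced inhibitor of cytokine signalling, averaged 72.0 ± 4.25 CPM in IL-13 and 10.4 ± 0.913 CPM in untreated libraries at day 0 (SD, n = 4; log2 fold change 2.78, edgeR adjusted p = 2.03e-13). Of its 50-base stretches, 9.35% occur in other genes. Socs1, which blocks Janus kinases, averaged 2.72 ± 0.566 CPM in IL-13 and 0.618 ± 0.165 CPM in untreated libraries (log2 fold change 2.12, edgeR adjusted p = 8.84e-06). Socs2, a further member of the family, fell by 0.74 (edgeR adjusted p = 2.23e-05), and Pias1 fell by 0.16 (adjusted p = 0.0283), a call lost without 6 of the 8 libraries in turn. Socs3, the classic feedback gene of gp130 and Stat3, averaged 6.51 ± 0.263 CPM in IL-13 and 7.48 ± 0.803 CPM in untreated libraries and did not pass (edgeR adjusted p = 0.109).

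Of 13 tested genes known to respond to gp130 and Stat3, 4 rose, 4 fell and 5 did not pass at day 0, with a median log2 fold change of -0.116. Over the 38 tested genes of the lists given here, each counted once, 55.3% were called at day 0, against 47.9% over all genes. Pim1, a survival kinase, rose by 1.49 (edgeR adjusted p = 2.38e-09), Bcl6 by 0.78 (8.44e-07) and Timp1 by 0.55 (0.000127), and Ccnd1 fell by 0.50 (0.000171). Ccnd1 and Pim1 share 21.6% and 8.78% of their stretches with other genes. Of 8 tested genes known to respond to Stat5, 4 rose, 3 fell and 1 did not pass, with a median of 0.246. Those that rose were Cish, Pim1, Bcl6 and Pparg, whose log2 fold change was 0.56 (9.66e-07). Those that fell were Socs2, Ccnd1 and Igf1, whose log2 fold change was -0.77 (edgeR adjusted p = 2.39e-05). Pim1, Bcl6, Cish, Ccnd1, Socs2 and Socs3 stand on more than one list. The effect of IL-13 differed between the days, where 8.06% of all genes were called, for 1 gene with a higher and 4 with a lower effect at day 6 of the 8 that respond to Stat5, for 2 with a lower effect of the 16 that respond to gp130 and Stat3, and for 1 higher and 3 lower of the 9 feedback inhibitors. The effect of IL-13 at day 6 minus that at day 0 was -2.62 for Cish, -1.68 for Pim1 and -0.53 for Pparg (edgeR adjusted p = 1.84e-11, 1.05e-08 and 0.000151), and Bcl6 also differed (adjusted p = 2.49e-07). For Socs2 it was 0.51 (edgeR adjusted p = 0.0253). Among the 3 feedback inhibitors with a lower effect, Socs1 (-1.68, edgeR adjusted p = 0.049) and Pias3 (-0.39, 0.0493) passed narrowly. Of 16 fits with 1 library left out, the Socs1 call was lost in 14 and the Pias3 call in 16. At day 0, Cish, Pim1, Bcl6, Pparg, Ccnd1 and Egfr were called with the same sign under all 16 other settings. With the index as a covariate, 4 named genes kept log2 fold changes of like size but were not called: Socs1 (1.75, adjusted p = 0.0587), Jak2 (0.34, 0.0587), Jak3 (-0.96, 0.172) and Il27ra (0.33, 0.614). The log2 fold change was nearer to 0 and not called for Socs2 (-0.55, adjusted p = 0.0554), Igf1 (-0.52, 0.0986), Timp1 (0.28, 0.26), Ghr (-0.11, 0.636) and Pias1 (-0.07, 0.816). For Clcf1 it was 0.07 (0.926).

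At day 0 the other receptors that use Stat3 or Stat5 held 1 gene that rose, Egfr with a log2 fold change of 0.71 (edgeR adjusted p = 1.62e-07), and 1 that fell, Ghr, by 0.16 (0.0174), a call lost without 3 of the 8 libraries in turn, while 3 of the 5 tested did not pass. Of the 4 Janus kinases Jak2 rose by 0.25 (0.0026), Jak3 fell by 0.94 (0.00104), and Jak1 and Tyk2 did not pass. Of 3 other gp130 cytokines tested, Clcf1 fell by 0.54 (0.00513), and of 2 other gp130 cytokine receptors tested, Il27ra rose by 0.34 (0.0491), a call lost without 7 of the 8 libraries in turn. At day 6 these lists held 2 calls among 44 tested genes, 4.55%, against 6.55% over all genes. Il31ra, a gp130-like receptor chain listed here with the gp130 cytokine receptors, fell by 1.02 (edgeR adjusted p = 0.032). Hp, an acute phase gene, rose by 0.45 (edgeR adjusted p = 0.0353). The Il31ra call was lost without 5 of the 8 libraries in turn and the Hp call without 6, and with the index as a covariate the log2 fold changes were -0.38 and 0.02 (adjusted p = 0.821 and 0.982).

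**Figure D5:**
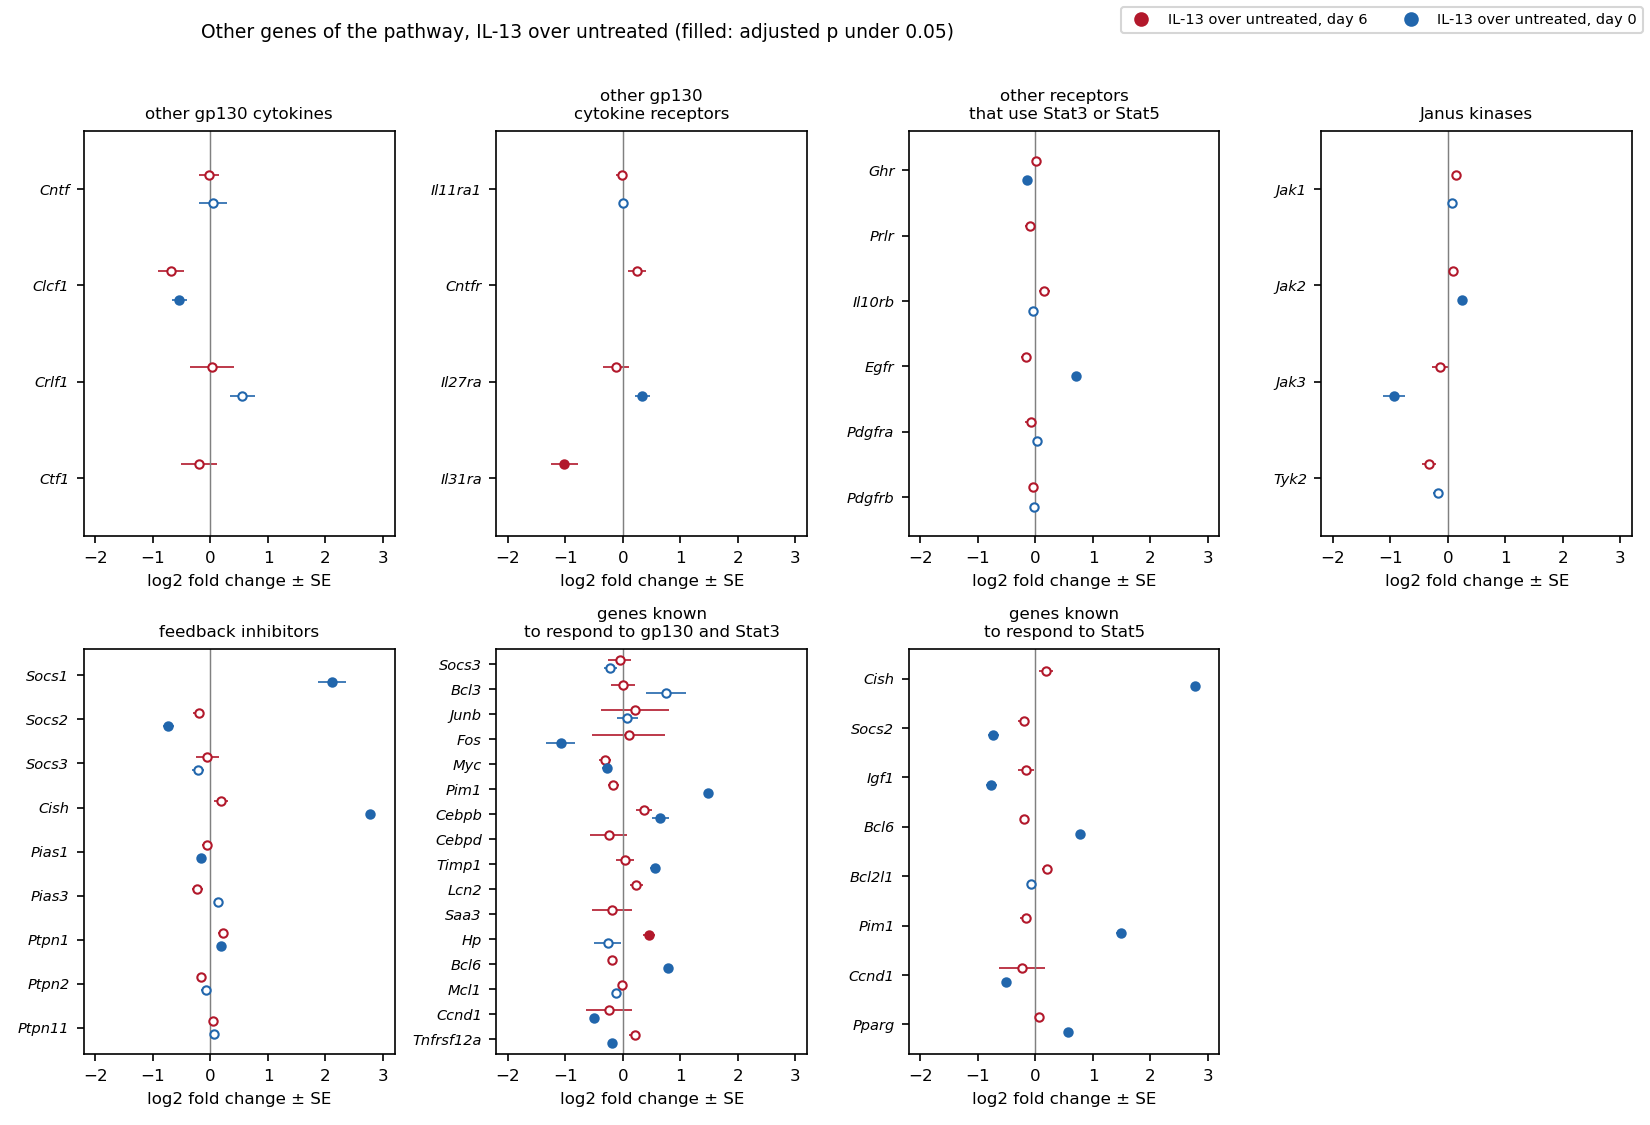
Log2 fold change with SE of the tested genes of 7 pathway lists, IL-13 over untreated at day 6 (red) and day 0 (blue), with filled points for adjusted p under 0.05. Cish and Socs1 lie farthest to the right at day 0, while at day 6 Il31ra and Hp are the filled points.

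Over the days 80.8% of all genes were called in IL-13 pre-treated and 80.5% in untreated cells, so that counts of called genes in the lists say little about the lists. All tested genes of the other gp130 cytokines, their receptors and the Janus kinases were called over the days, in IL-13 pre-treated and in untreated cells alike: 2 cytokines higher and 2 lower, 2 receptors higher and 2 lower, and 1 kinase higher and 3 lower. The other receptors that use Stat3 or Stat5 had 2 higher and 4 lower of 6 in IL-13 pre-treated cells and 2 higher and 2 lower in untreated cells. The feedback inhibitors had 2 higher and 5 lower of 9, and the genes known to respond to gp130 and Stat3 had 9 higher and 6 lower of 16, in each. The genes known to respond to Stat5 had 4 higher and 4 lower of 8 in IL-13 pre-treated cells and 5 higher and 3 lower in untreated cells. Prlr, the prolactin receptor, averaged 27.6 ± 2.56 CPM in IL-13 and 29.7 ± 3.57 CPM in untreated libraries at day 6, against 0.0445 ± 0.089 in IL-13 and 0.097 ± 0.0495 in untreated libraries at day 0 (SD, n = 4). Timp1 averaged 3.69 ± 0.244 CPM in IL-13 and 3.63 ± 0.61 CPM in untreated libraries at day 6, against 149 ± 16.1 in IL-13 and 100.9 ± 11 in untreated libraries at day 0. Both passed the test in both day comparisons, Prlr higher and Timp1 lower.

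On the genome (GRCm38 coordinates), Osmr at chromosome 15, 6813577 to 6874969 on the minus strand, and Lifr at 7090614 to 7197489 on the plus strand are neighbours whose starts lie 215.6 kb apart with 0 protein-coding genes between them. Stat5b, Stat5a and Stat3 lie in a row on chromosome 11, with the starts of Stat5b and Stat5a 8.6 kb apart, and Stat5a and Stat3 overlap by 72 bases at their ends on opposite strands. Likeness was searched among genes without a provisional name, such as Gm or Rik. The gene most like Lifr over the 16 libraries was Rictor, with a Pearson correlation of log2 CPM of 0.986. Rictor lies at 6708379 to 6800401 on chromosome 15, 13175 bases from Osmr and 290212 bases from Lifr, with Osmr between them. The genes most like Il6ra, Il6st, Osmr and Stat5a were Ggt5 (0.969), Copb2 (0.997), Msrb3 (0.994) and Cntnap1 (0.994), and those most like Stat3 and Stat5b were Arid3b (0.948) and Mtss1 (0.986). These correlations span days and treatments that the libraries share, and are given as a description.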

How the data were processed

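Each of the 16 libraries was read from 2 tables, 1 per day. Per the file headers, the authors deposited total read counts per gene, which are whole numbers, and TPM, which scales by gene length; 32 other per-library columns were not used. The build was mm10, per the submitters' processing notes. The aligner, counter and annotation were not given in the sources used here. All members, the 8 pathway lists and the nuclear RNA list were chosen with earlier results of these data known.

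Counts were tested with edgeR 4.0.16 in R 4.3.3 (quasi-likelihood, robust, TMM; filter at a minimum count of 10 and a total of 15), after a check on simulated data, with Benjamini-Hochberg adjustment over all tested genes. IL-13 was tested within each day; changes over days and the difference between IL-13 effects came from a fit of all 16 libraries. Alternatives were DESeq2 1.42.0, total-count scaling, no filter, a replicate block, the nuclear RNA index as covariate, a fold of 1.2 and left-out libraries. Named were all members and, of each list, up to 4 genes with the smallest p. Socs3, Osm and, at day 0, Igf1 were added after their values were seen. The list of other Stat genes is not reported here. Library totals, 15253031 to 18112087, limit the ligands most. Replicates differed beyond sampling noise (chi-square per degree of freedom 3.87 to 25.9). Likeness used log2 CPM with a prior count of 2, for genes with a mean of at least 1. Genes with a Gm, Rik, LOC or accession-like name were left out of that search.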

Additional observations from a re-analysis of the deposited data

Results flagged for a closer look

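The IL-13 effect differed between the days for 3 genes: the log2 effect at day 6 minus that at day 0 was -1.80 for Il6ra, -0.52 for Il6st and 0.57 for Osmr. Of 36 groups of 4 libraries tested for a library standing apart, 3 were flagged, and chance flags about 1 in 20. The day 0 untreated library 3 had the lowest Il6ra of its group, 9.21 CPM. The day 6 untreated library 2 had the highest Il6, 0.119 CPM, and the day 0 IL-13 library 3 the highest Lif, 0.416 CPM; both rest on a few counts.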

How the results depend on the processing

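For IL-13 at day 0, the 7 called members became 3 once the nuclear RNA index entered as covariate, 4 against a fold of 1.2 and 4 without the pair of untreated libraries with the highest index (added after the data were seen), and 5 to 7 when each library was left out in turn. For IL-13 at day 6, the 0 called members became 3 with total-count scaling, 1 with DESeq2 and 3 with the replicate block, and 0 to 1 when each library was left out. The other counts of members stayed within 1.5 times under every setting run. 
In no comparison did every same-numbered pair of libraries correlate above 0.1, so the numbers were not taken as pairs. The deviations correlated by 0.2, 0.0061, 0.17 and 0.21 at day 6, where 2 of 4 numbers matched best with themselves. They correlated between -0.083 and 0.2 in the other comparisons. Numbers 1, 3 and 4 matched best with themselves for IL-13 at day 0. Over the days, numbers 1 and 3 did so in untreated cells and number 3 in IL-13 pre-treated cells. With the replicate block at day 6, Il6st (0.17, adjusted p = 0.0286), Lifr (-0.47, 0.000297) and Stat5a (-0.20, 0.0355) passed.

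The sign turned for these values. Lifr of day 6 over day 0 in IL-13 pre-treated cells was 0.00297 with DESeq2, 0.01091 with no filter, 0.007741 without the high-index libraries, and between -0.1227 and 0.1316 with each library left out. Stat3 over the days in untreated cells was -0.09279 with total-count scaling, -0.01179 with DESeq2, -0.0258 with no filter, -0.08446 with the covariate, and between -0.05396 and 0.0289 with each library left out. With the covariate, Lifr for IL-13 at day 6 was 0.2253, against -0.46 without it, and Osmr was 0.03687. The difference for Stat5a was -0.08432 without the high-index libraries and between -0.004464 and 0.132 with each library left out. The cause was not tested.

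Over all genes, the 5881 calls for IL-13 at day 0 became 852 with the covariate, 1904 against a fold of 1.2 and 3485 without the high-index libraries. The 809 at day 6 became 1470 with DESeq2, 2812 with the block, 1405 with all 16 libraries in the fit, 80 against a fold of 1.2 and 2 without the high-index libraries. With the covariate edgeR called 0 genes at day 6, where 975 had an unadjusted p under 0.05. The 1061 for the difference became 1608 with the block, 2048 with the covariate, 461 against a fold of 1.2 and 545 without the high-index libraries. Depth limits Il6 and Lif, which have few counts.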
